A study of Mus musculus with 6 samples.

Results

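The stathmins are a family of 4 proteins, here the genes Stmn1, Stmn2, Stmn3 and Stmn4, and Gm11223 is a processed pseudogene of Stmn1. These 5 genes were taken by symbol from the 38355 genes of the count tables, the 4 stathmins as a family and Gm11223 chosen by its counts, which differed between the ages in these samples. All 5 passed the filter on low counts, which kept 17120 genes. The study sequenced poly(A) RNA of whole cortical hemispheres from untreated C57BL/6 mice without a transgene, 3 samples from mice of 6 months and 3 from mice of 16 months, to ask how the cortical transcriptome differs with age. Neither sex nor any pooling of animals is given in the labels, so the P-values measure the spread between these samples. The counts are of bulk tissue, in which fewer cells of a type and less RNA per cell cannot be told apart.

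Stathmins bind tubulin dimers and keep them from joining the microtubule, and they promote the shortening of microtubule ends. Phosphorylation by several kinases releases the tubulin. Stmn1 encodes the soluble cytosolic member, while Stmn2 (SCG10), Stmn3 (SCLIP) and Stmn4 (RB3) carry an additional N-terminal extension that attaches them to membranes of the Golgi apparatus and of vesicles in neurites. Stmn2 is known as a protein of growing and regenerating axons. A processed pseudogene is a copy of a spliced mRNA inserted elsewhere in the genome.

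Gm11223 and its parent are nearly the same in sequence, which sets what a count on either gene can tell. In the annotation of GRCm38 the pseudogene (ENSMUSG00000046341) covers chr4:69925630-69926079 on the minus strand, overlaps no other gene and has 450 bases, the length of the Stmn1 coding sequence with its stop codon. The RefSeq annotation of GRCm38.p6 gives the same pseudogene 970 bases, chr4:69925201-69926170. The 450 bases were identical to the Stmn1 coding sequence at 99.8%, with A274G as the only difference (the Stmn1 base, the position counted from 1 at the first base of the start codon, and the Gm11223 base). Bases 234 to 314 of both are shown because this single base separates the pseudogene from its parent; they are printed 5′ to 3′ with the differing base in capitals.
Stmn1: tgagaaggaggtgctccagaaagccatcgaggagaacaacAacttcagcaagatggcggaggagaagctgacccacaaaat
Gm11223: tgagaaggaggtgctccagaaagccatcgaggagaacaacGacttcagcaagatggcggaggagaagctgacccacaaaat

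The differing base lies in exon 4 of Stmn1 and within the part of the coding sequence that is most alike across the family. The coding sequences of the 4 stathmins aligned over 432 columns without a gap, of which 215 held the same base in all 4. The 60-base stretch with the most such columns had 41 of them, and A274G falls on one of these columns. The stretch is shown for the 4 stathmins, 5′ to 3′, with the columns identical in the 4 stathmins in capitals.
Stmn1: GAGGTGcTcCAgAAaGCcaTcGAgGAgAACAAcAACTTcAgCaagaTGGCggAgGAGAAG
Stmn2: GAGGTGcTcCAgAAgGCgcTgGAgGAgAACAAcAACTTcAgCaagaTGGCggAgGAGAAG
Stmn3: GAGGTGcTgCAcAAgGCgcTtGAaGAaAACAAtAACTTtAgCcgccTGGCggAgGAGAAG
Stmn4: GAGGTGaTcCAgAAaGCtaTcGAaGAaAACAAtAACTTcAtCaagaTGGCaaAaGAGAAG

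Over their whole coding sequences the 4 stathmins were less alike. Their coding sequences encode 149 codons in Stmn1, 179 in Stmn2, 180 in Stmn3 and 189 in Stmn4, and pairwise identity ran from 66.3% between Stmn3 and Stmn4 to 73.5% between Stmn2 and Stmn3. Among all annotated transcripts, Stmn1 and Gm11223 were the only genes with a copy of each other at 97% identity or more over at least 100 bases, and no transcript of another gene reached that for Stmn2, Stmn3 or Stmn4.

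The reads were 100 bases long, sequenced from both ends of a fragment, and reads that fit more than 1 place were kept out of the gene counts. Of the 351 windows of 100 bases in Gm11223, 100 cover the differing base and 251 (71.5%) are identical in Stmn1. Of the 961 such windows in the Stmn1 transcript of 1060 bases, 251 (26.1%) are identical in Gm11223, and most of the others reach into the 170 bases before or the 440 bases after the coding sequence. Within the annotated 450 bases, the map of these windows shows that a single read separates both genes only around 1 base. The RefSeq form of Gm11223 extends past these bases on both sides, and its sequence was not read here, so how much of the Stmn1 transcript outside the coding sequence is also found there is unknown. The windows describe single reads, and the place of a mate was not considered.

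**Figure D1:**
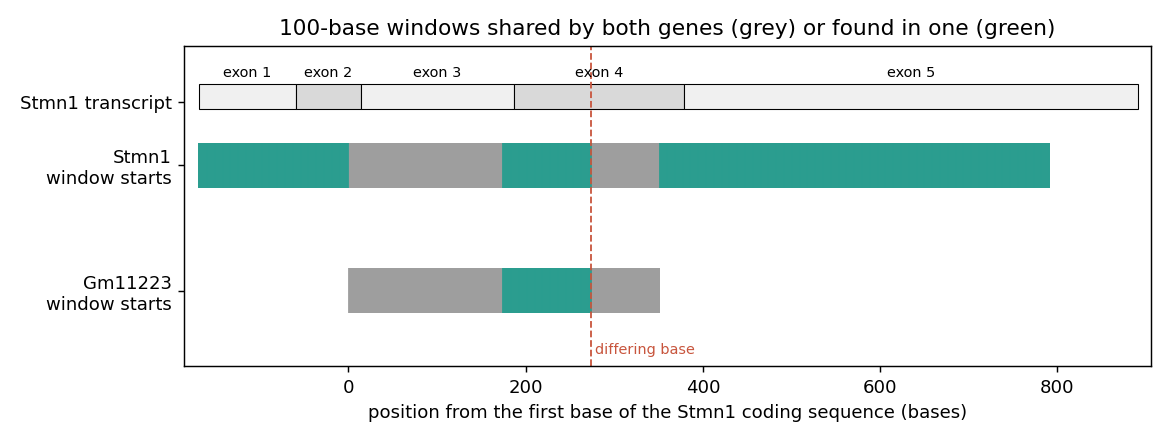
Start positions of 100-base windows along the Stmn1 transcript and Gm11223, by distance in bases from the start of the coding sequence; grey windows occur in both genes and green windows in 1. Only the 450 annotated bases of Gm11223 were compared; boxes mark the 5 exons of Stmn1, and the dashed line marks the differing base, which 100 of the 351 Gm11223 windows cover.

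Gm11223 was counted at 232, 141 and 220 reads in the samples of 6 months and at 27, 22 and 23 in those of 16 months. After TMM scaling these were 4.95, 4.70 and 5.24 counts per 1000000 counts (CPM) at 6 months. At 16 months they were 0.814, 0.702 and 0.673 CPM. Every 16-month sample was below every 6-month sample, and within each age the 3 samples lay close together. The mean was 4.97 ± 0.272 CPM (SD, n = 3) at 6 months and 0.730 ± 0.0746 at 16 months (SD, n = 3), a log2 fold change of -2.76, or 6.80-fold lower. As the pseudogene was chosen for this difference, it is described without a test. Counts of 22 to 27 stand above the 3 counts taken as the floor, which are 0.0645 to 0.101 CPM at the depth of these samples.

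**Figure D2:**
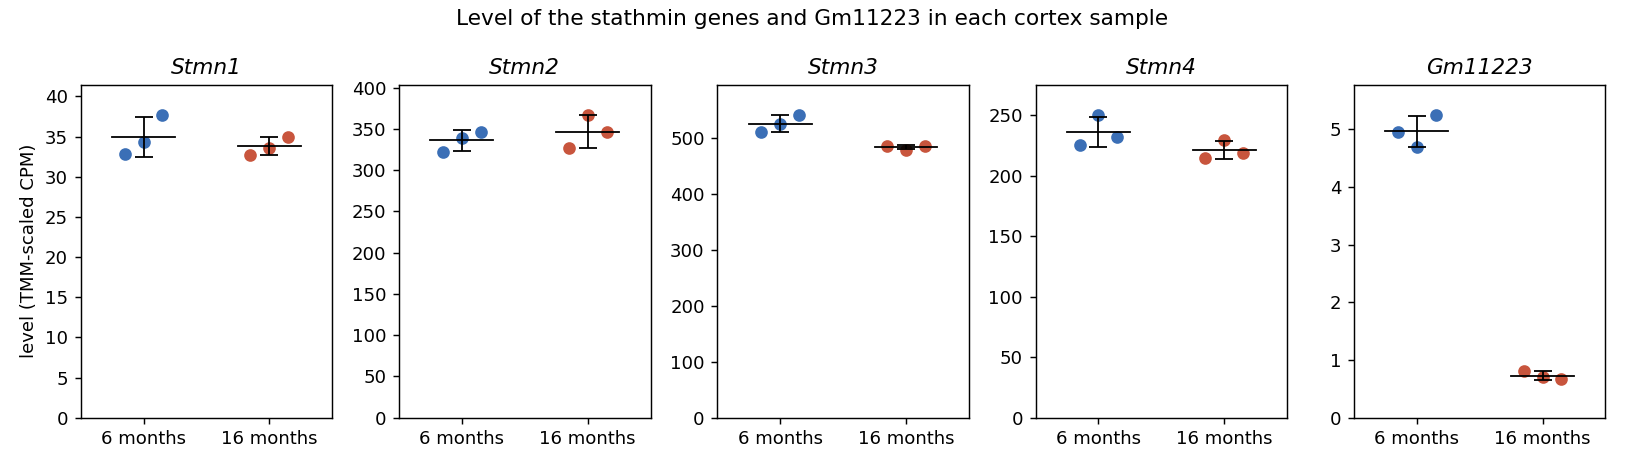
TMM-scaled CPM of Stmn1, Stmn2, Stmn3, Stmn4 and Gm11223 in each sample, with a separate axis from 0 for each gene; points are samples, lines are means and bars are SD (n = 3). Gm11223 was between 4.70 and 5.24 CPM at 6 months and between 0.673 and 0.814 at 16 months, while the stathmin levels of both ages lay near each other.

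The parent gene Stmn1 (ENSMUSG00000028832, chr4:134468320-134473843, plus strand) was not called between the ages. It was counted at 1540, 1028 and 1580 reads at 6 months and at 1086, 1054 and 1194 at 16 months. In CPM these were 32.9, 34.3 and 37.7 at 6 months and 32.8, 33.6 and 35.0 at 16 months. The samples of both ages overlapped, and the spread at 6 months came from replicate 3, the highest of all 6. The means were 34.9 ± 2.47 and 33.8 ± 1.11 CPM (SD over 3 samples per age). Their log2 fold change was -0.05 (SE 0.066, 95% interval -0.20 to 0.10, edgeR quasi-likelihood test, Benjamini-Hochberg adjusted P = 0.753). Without the 6-month replicate 3 it was 0.01. The interval of Stmn1 ends far from the -2.76 of Gm11223. That value has no interval, as the pseudogene was chosen for it, and both genes were not compared by a test.

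Set against its parent in each sample, Gm11223 had 150.6, 137.2 and 139.2 counts per 1000 Stmn1 counts at 6 months. At 16 months it had 24.9, 20.9 and 19.3. These are ratios of counts, not of levels per length, and they follow from the contrast by which Gm11223 was chosen. The mean was 142.3 ± 7.26 at 6 months and 21.7 ± 2.88 at 16 months (SD, n = 3 each), 6.57-fold lower. Of the counts on both genes, Gm11223 took 13.1%, 12.1% and 12.2% at 6 months, with exact 95% binomial intervals between 10.3% and 14.8%. It took 2.43%, 2.04% and 1.89% at 16 months, with intervals between 1.20% and 3.51%. The intervals cover counting error only.

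**Figure D3:**
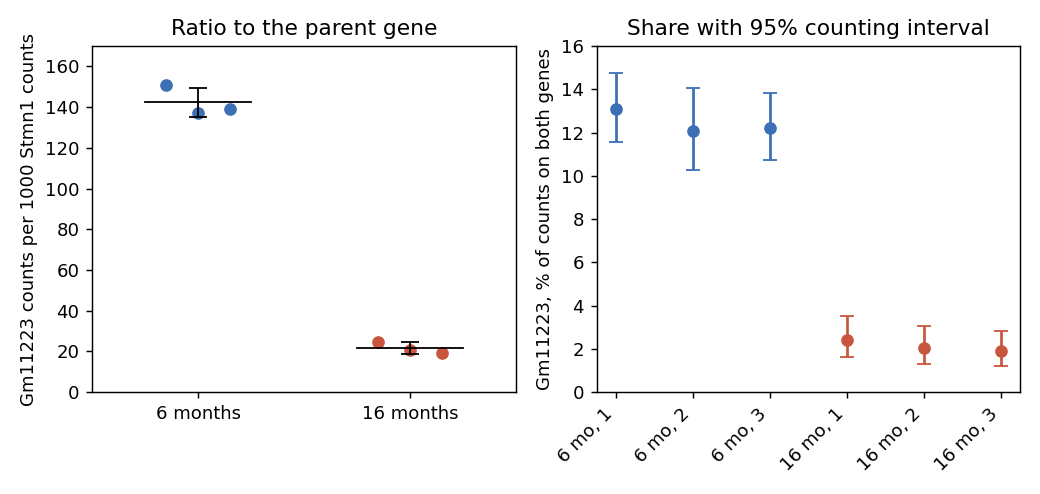
Left, Gm11223 counts per 1000 Stmn1 counts in each sample (points), with mean and SD (n = 3). Right, percent of the counts on both genes that fell on Gm11223, with exact 95% binomial intervals; the samples of 6 months lie at 12.1% to 13.1% and those of 16 months at 1.89% to 2.43%.

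Summed, both genes gave 37.8, 39.0 and 42.9 CPM at 6 months and 33.6, 34.3 and 35.6 at 16 months. The mean sum differed by -5.38 CPM at 16 months, made up of -4.24 CPM in Gm11223 and -1.15 CPM in Stmn1. With the counts of Gm11223 added to Stmn1, the log2 fold change of Stmn1 was -0.21 (SE 0.064, adjusted P = 0.139 by edgeR, not called) in place of -0.05. The added counts are those by which Gm11223 was chosen, so this value is a description only. Reads that fit more than 1 place numbered 49.0, 51.4 and 50.7 per 100 reads counted on genes at 6 months and 43.4, 49.2 and 48.9 at 16 months. How many of these came from the sequence shared by Stmn1 and Gm11223 was not tested.

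Few other processed pseudogenes were called between the ages. Over all genes tested, 286 were called at an adjusted P under 0.05 (1.67%), 134 higher (0.783%) and 152 lower (0.888%) at 16 months. Of the 310 processed pseudogenes tested beside Gm11223, 1 (0.323%) was called, Rpl3-ps1, a pseudogene of a ribosomal protein gene with a log2 fold change of 0.48, which is named here after its value was seen. No other processed pseudogene had a lower fold change than Gm11223, and of all genes tested only Mmp12, a macrophage metalloelastase, and the zinc finger gene Zfp990 did. This rank follows from the contrast by which Gm11223 was chosen. At 16 months Mmp12 and Zfp990 had means of 0.0198 and 0.0204 CPM, below the floor of 0.0645 to 0.101 CPM. The median log2 fold change was -0.02 over the processed pseudogenes and 0.00 over all genes.

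The genes with the profile most like that of Gm11223 over the 6 samples were those with the same step. Measured as the root mean square difference of log2 CPM centred on each gene's mean, they were Mmp12 (0.26), Zfp990 (0.37), the complement component C3 (0.38), the pseudogene Nlrp5-ps (0.45) and A530053G22Rik (0.47). The stathmins lay at 1.28 to 1.37 from Gm11223 by the same measure, and at 0.06 to 0.10 from each other.

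None of the 4 stathmins was called between the ages by the edgeR quasi-likelihood test, against 1.67% of all genes. At an unadjusted P under 0.05 there was 1, Stmn3, and DESeq2 called 0, with a lowest adjusted P of 0.305. In 3 of the 4 the fold change was below 0, with a median of -0.07 on the log2 scale beside 0.00 over all genes. Only in Stmn3 did the samples of the ages not overlap, as in 23.7% of all genes.

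Stmn3 (ENSMUSG00000027581, chr2:181306459-181314500, minus strand), the SCLIP gene, was at 510.9, 525.0 and 541.3 CPM at 6 months. At 16 months it was at 486.6, 479.8 and 486.7 CPM. All 16-month samples were below all 6-month samples, and those of 16 months were closer together, with an SD of log2 CPM of 0.01 against 0.04. The means were 526 ± 15.2 and 484 ± 3.97 CPM (SD over 3 samples per age), a difference of -7.87% and a log2 fold change of -0.12 (SE 0.048, 95% interval -0.23 to -0.01, unadjusted P = 0.033, adjusted P = 0.239 by edgeR). The exact two-sided permutation test gave P = 0.1, the smallest that 3 samples against 3 allow.

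Stmn4 (ENSMUSG00000022044, chr14:66344296-66361680, plus strand), the RB3 gene, was at 225.8, 250.2 and 232.5 CPM at 6 months and at 214.7, 229.7 and 219.3 at 16 months. The ages overlapped, since replicate 2 at 16 months exceeded replicate 1 at 6 months. The log2 fold change of -0.09 (SE 0.057, 95% interval -0.22 to 0.03) did not pass the test (adjusted P = 0.436).

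Stmn2 (ENSMUSG00000027500, chr3:8509360-8561606, plus strand), the SCG10 gene, was the only stathmin with a fold change above 0. It was at 322.0, 339.4 and 346.9 CPM at 6 months and at 327.1, 366.8 and 347.0 at 16 months. The lowest and highest 16-month samples spanned most of the range of both ages. The log2 fold change was 0.05 (SE 0.058, 95% interval -0.08 to 0.18, adjusted P = 0.732), and without the 16-month replicate 2, the highest sample, it was less than 0.01. Stmn2 has the lowest GC content of the 4, 41.3% of its longest transcript against 51.1% in Stmn1, 54.1% in Stmn4 and 57.3% in Stmn3. Over all genes, the deviation of a sample from the mean correlated with GC content at r = 0.59 in the 16-month replicate 1 and r = -0.58 in replicate 2, and at -0.13 to 0.16 in the others (across genes, which are not independent replicates). With offsets for GC content and length, Stmn2 had a log2 fold change of 0.11 (adjusted P = 0.0543).

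The stathmin genes differed from each other far more than with age. Per kilobase of exon, Stmn3 was highest, with 462.8 ± 13.4 CPM per kilobase at 6 months and 426.4 ± 3.49 at 16 months (SD, n = 3 each). Stmn4 followed with 123.3 ± 6.60 and 115.5 ± 4.03, and Stmn2 with 60.0 ± 2.29 and 61.9 ± 3.55. The soluble member Stmn1 was lowest, with 18.2 ± 1.29 and 17.6 ± 0.576. No sample of a gene in this order reached the level of its neighbour, as the plot of levels per length shows. The order of Stmn4 and Stmn2 rests on the length used, because the union of the exons annotated for Stmn2 is 5602 bases and its principal transcript 2073. With principal transcripts, Stmn4 had 164.8 to 192.1 CPM per kilobase and Stmn2 155.3 to 177.0, and their samples overlapped. The level of Stmn1 also rests on the length used. With its principal transcript less the stretch shared with Gm11223, Stmn1 had 57.3 ± 4.05 and 55.4 ± 1.81 CPM per kilobase, and stayed the lowest.

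**Figure D4:**
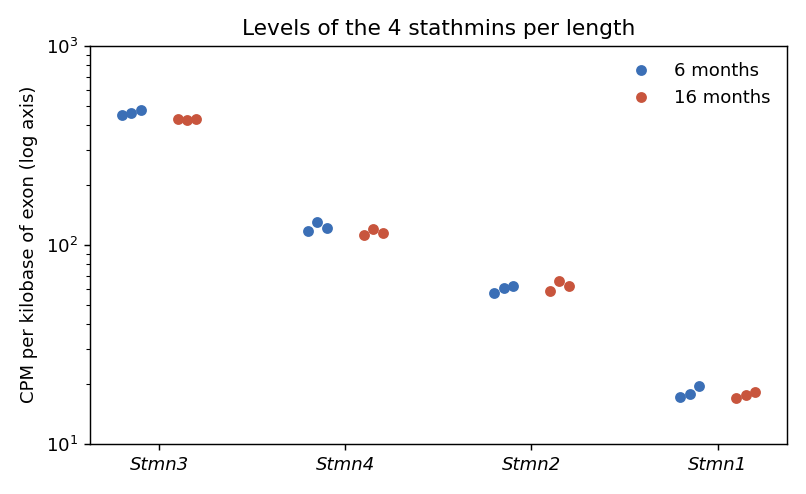
CPM per kilobase of exon, on a log axis, for the 4 stathmins in each sample of 6 and 16 months. The samples of a gene lie together and apart from those of the next gene, from 422.3 to 476.5 in Stmn3 down to 17.1 to 19.6 in Stmn1.

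As shares of the summed stathmin level per length, Stmn3 made up 69.7% at 6 months and 68.6% at 16 months, and Stmn4 18.6% at both ages. Stmn1 made up 2.73% and 2.83%. The share of Stmn2 was 9.03% at 6 months (8.95% to 9.12% in single samples) and 9.97% at 16 months (9.48% to 10.5%). The Stmn2 samples of the ages thus did not overlap as shares, while they did as levels. How often shares of other genes do so was not computed. A share also depends on the sum, most of it Stmn3, whose mean was lower at 16 months (462.8 and 426.4 CPM per kilobase). The part of Stmn3 in the Stmn2 share was not tested. All these shares use the union of exons. With principal transcripts less the stretch shared with Gm11223, Stmn1 made up 6.63% and 6.76%. Stmn3 then made up 53.6% and 52.1%.

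The tested genes with the profile most like each stathmin over the 6 samples were Zscan18, Ptpmt1 and Syt10 for Stmn1 (root mean square differences of 0.02 to 0.03 in log2 CPM), and Ube2e3, Spata5 and Eprs for Stmn2 (0.01 each). They were Kif5a, a neuronal kinesin heavy chain, Slc50a1 and Cpne9 for Stmn3 (0.01 to 0.02), and Sdccag8, Rwdd1 and the syntaxin Stx17 for Stmn4 (0.01 to 0.02).

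Genes listed as binding or regulating stathmins, other microtubule regulators and genes of axon growth were read from 5 fixed lists of 71 genes, of which 68 were tested. Of these, 3 were called by edgeR, all higher at 16 months and all in the list of axon growth genes, against 1.67% called over all genes. The call depended on the samples: without any 1 sample of 6 months or the 16-month replicate 3, 0 of the 68 were called, without the 16-month replicate 1 there were 7, and without replicate 2 there were 21.

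Among the axon growth genes, 3 of 12 were called higher and 0 lower by edgeR (8 at an unadjusted P under 0.05, DESeq2 5). Dpysl3, a collapsin response mediator protein that bundles actin in growth cones, was at 39.0 ± 0.767 CPM at 6 months and rose to 49.0 ± 0.294 (SD over 3 samples per age; log2 fold change 0.33, SE 0.051, adjusted P = 0.0136). Marcksl1, encoding a small relative of the actin-binding protein kinase C substrate Marcks, rose from 20.04 ± 0.725 to 27.0 ± 2.24 CPM (0.43, SE 0.073, adjusted P = 0.0204). Marcks itself rose from 163.7 ± 2.80 to 197.4 ± 6.60 CPM (0.27, SE 0.050, adjusted P = 0.0287). Sox4 (0.62) and Ncam1 (0.23) were higher by DESeq2 (adjusted P = 0.0014 and 0.0415) and not by edgeR (0.0531 and 0.0978). In this list 9 of 12 genes had samples that did not overlap between the ages (23.7% of all genes), and the median log2 fold change was 0.22, against 0.05 for Stmn2, the stathmin of growing axons. Dcx and Sox11 of this list, with log2 fold changes of -0.17 and 0.44, are also markers of newborn neurons.

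Tubulins, the stathmins' binding partners, had 0 of 11 tested genes called by edgeR, with 6 at an unadjusted P under 0.05 and 1 called by DESeq2. That gene was Tubb2a, at 182.8 ± 3.00 CPM at 6 months and 216.6 ± 9.55 at 16 months (log2 fold change 0.25, adjusted P = 0.0523 by edgeR and 0.00456 by DESeq2). The most abundant tubulins by CPM, Tubb4a (516.0 and 563.9) and Tuba4a (372.1 and 406.3), also did not pass the test. The median log2 fold change of the tubulins was 0.13. Of the 11, 9 had fold changes above 0, and in 6 the samples of the ages did not overlap (23.7% of all genes). With offsets for GC content and length, Tuba1a, Tuba4a, Tubb2a, Tubb3, Tubb4a, Tubb4b and Tubb5 passed the threshold. That fit called 2430 of all 17120 genes.

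Of the 18 tested kinases and phosphatases that act on stathmins, edgeR called 0 (3 at an unadjusted P under 0.05, DESeq2 0), with a median log2 fold change of 0.03. Its most abundant members by CPM, the calcium- and calmodulin-dependent kinases Camk2a (3096 and 3386) and Camk2b (670.9 and 767.5), did not pass the test. Of the 4 genes listed as factors for the level of Stmn2, edgeR called 0 (0 at an unadjusted P under 0.05, DESeq2 0), with a median of 0.06. Whether these genes act on Stmn2 RNA in mouse cortex was not tested. Among these, Tardbp, the gene of the splicing regulator TDP-43, was at 278.4 and 249.5 CPM, and Map3k12, the axonal stress kinase DLK, at 98.9 and 101.7. Of 23 other microtubule regulators, edgeR called 0 (2 at an unadjusted P under 0.05, DESeq2 0), with a median of 0.05. The most abundant, Map2 (1584 and 1655 CPM) and Map1a (1219 and 1272), stabilize microtubules of dendrites and axons.

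**Figure D5:**
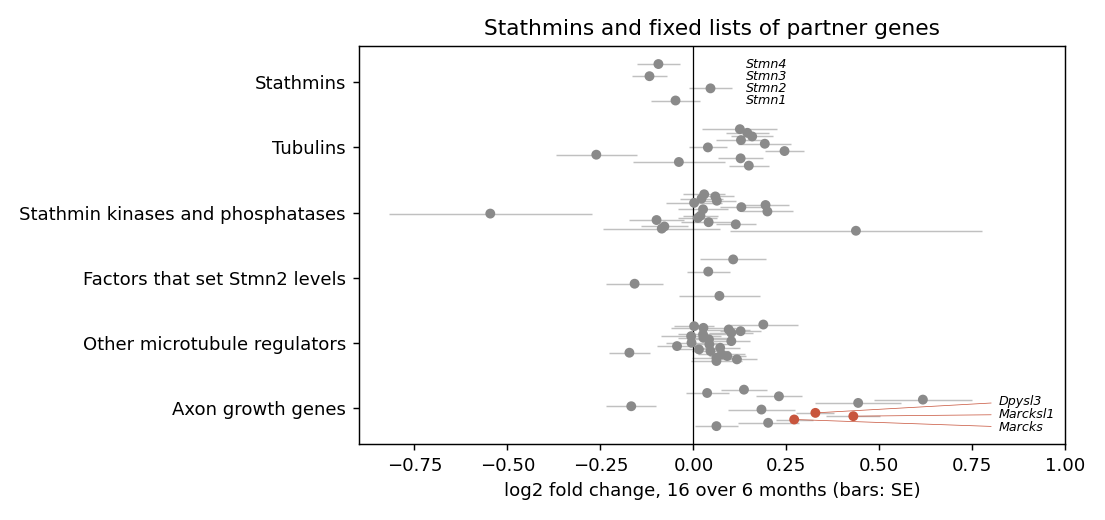
Log2 fold change of 16 over 6 months, with SE bars, for the 4 stathmins and the tested genes of the 5 lists; genes with an adjusted P under 0.05 are red. The stathmins lie between -0.12 and 0.05, and the only red points are Dpysl3, Marcksl1 and Marcks among the axon growth genes.

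Total counts on genes were 29797253 to 46519280 per sample, with TMM factors of 0.988 to 1.01. Markers of neurons, in which Stmn2 and Stmn3 are mostly expressed, summed to 7529 to 7673 CPM at 6 months and 7328 to 8041 at 16 months, with 0 of 7 called by edgeR (2 at an unadjusted P under 0.05, DESeq2 0). Markers of dividing cells and newborn neurons, in which Stmn1 is known to be high, summed to 67.8 to 72.1 and 65.8 to 71.9 CPM, with a median log2 fold change of 0.64 and 0 of 5 called by edgeR (5 at an unadjusted P under 0.05, DESeq2 1). Of these 5, 4 had fold changes above 0. Dcx, which made up most of the sum, went the other way (62.2 and 55.4 CPM, log2 fold change -0.17). Some markers of other regions were called higher at 16 months, against 0.783% of all genes: those of the thalamus summed to 63.4 to 66.8 and 84.7 to 93.1 CPM (4 of 5 higher: Shox2, Prkcd, Tcf7l2 and Ramp3), those of the dentate gyrus to 49.7 to 52.5 and 70.4 to 74.6 (3 of 5 higher: Dsp, Lct and C1ql2), and those of the choroid plexus to 11.9 to 12.8 and 20.3 to 22.6 (1 of 5 higher: Ttr, from 8.95 to 17.8 CPM, most of the difference of that sum). Among glia and vessels, Gfap of 6 astrocyte markers (list sum 4894 to 5235 and 5171 to 5895 CPM; 5 at an unadjusted P under 0.05, DESeq2 3) and Aif1 of 6 microglia markers (346.2 to 356.9 and 357.1 to 365.9; 2 and 2) were called lower by edgeR, while 3 of 6 in each list had fold changes above 0. Chosen after their values were seen, Aldh1l1 of astrocytes (log2 fold change 0.25) and Csf1r of microglia (0.25) were higher by DESeq2 (adjusted P = 0.0282 and 0.0334) and not by edgeR (0.0827 and 0.0926). S100b of astrocytes (-0.25), chosen in the same way, was lower by DESeq2 (adjusted P = 0.00705) and not by edgeR (0.0549). Of 6 oligodendrocyte markers (6810 to 6880 and 6870 to 6895 CPM), edgeR called 0 and DESeq2 1, Cnp, with 2 at an unadjusted P under 0.05. Of 3 markers of their precursors (103.1 to 107.8 and 117.7 to 125.8), edgeR called 0 and DESeq2 1, Pdgfra, with 2 unadjusted. Cnp and Pdgfra were higher at 16 months (log2 fold change 0.23 and 0.22, adjusted P = 0.0128 and 0.0201 by DESeq2). Of 4 endothelium markers (96.5 to 97.7 and 88.4 to 94.2), edgeR called 0 and DESeq2 0, with 1 unadjusted. The part of tissue makeup in the values of the stathmins, Gm11223 and the axon growth genes was not tested.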

How the data were processed

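Cortical poly(A) RNA libraries (TruSeq, paired reads of 100 bases) were analysed. The authors trimmed reads with fastq-mcf, aligned them to mm10 with STAR in 2-pass mode and deposited raw counts per Ensembl gene with HTSeq summary lines. The submitters' processing notes list CASAVA 1.8.2, STAR 2.3.0e and featureCounts 1.5.0-p1. The Ensembl release and strand setting are not given in the sources used here. Growth notes give the younger age as 3 months; the 6 months of titles and age labels were used.

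Of 38355 identifiers, 36602 matched GENCODE M21 (GRCm38). Counts were tested with edgeR 4.0.16 (R 4.3.3; TMM, filterByExpr, quasi-likelihood, Benjamini-Hochberg, threshold 0.05), with DESeq2 1.42.0 as an alternative. Log2 CPM used a prior count of 2. On simulated data of 17120 genes for 16 against 6 months, 77.6% of changes of 0.5 on the log2 scale, 92.5% of those of 1 and 93.9% of those of 2 were recovered. Of the calls, 6.38% were false. The simulated counts had the same dispersion at both ages and no deviation with GC content, so recovery in the real samples may be lower. Changes as small as those of the stathmins were not simulated. Copies were searched with blastn 2.17.0 (97% over 100 bases), coding sequences aligned with MAFFT 7.526, and figures drawn with matplotlib 3.10.9.

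Members, the 5 partner lists (tubulins, kinases and phosphatases, genes listed as factors for Stmn2, other microtubule regulators, axon growth genes) and 10 marker lists were chosen with earlier results of these data known. Named were the members, copies, list genes past the threshold or else the 2 most abundant of a partner list, and genes with the nearest profiles (5 for Gm11223, 3 for each stathmin). Alternatives were other normalizations, filters, DESeq2, a replicate block, offsets for GC content and length over 20 bins, each sample left out, and other transcript lengths.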

Additional observations from a re-analysis of the deposited data

How the results depend on the processing

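Under the other normalizations, filters, the DESeq2 Wald test, the replicate block alone and the offsets alone, no stathmin was called and each kept its direction; Gm11223 stayed between -2.78 and -2.69 on the log2 scale. With offsets for GC content and length together with the replicate block, Stmn2 (0.11, adjusted P = 0.0210), Stmn3 (-0.084, 0.0496) and Stmn4 (-0.077, 0.0486) passed the threshold; over the alternatives, left-out samples included, the adjusted P ran up to 0.969, 0.616 and 0.836. The labels do not say that samples of the same replicate number form pairs. Deviations of same-numbered samples correlated at r = 0.18, 0.096 and 0.035, and 5 of 6 samples correlated best with their own number. Whether same-numbered samples were processed together was not tested.

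The count of genes called, 286, was 648 without a filter, 513 with DESeq2, 783 with the replicate block, 2430 with the offsets and 3319 with both. The calls in the partner lists, 3, became 6 without a filter, 6 with DESeq2, 7 with the block, 22 with the offsets and 28 with both. Processed pseudogenes called, 2 with Gm11223, became 1 with upper quartile scaling, 1 with at least 10 counts in every sample, 6 with the offsets and 11 with both. These pseudogene counts can include Gm11223, which was chosen for its difference, so they are a description only. The causes were not tested.

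With each sample left out in turn, the count over all genes was 55, 57 and 48 without the 6-month replicates 1, 2 and 3, and 995, 2211 and 58 without those of 16 months. Processed pseudogenes called, which can again include Gm11223, were 1 each, but 4 and 7 without the 16-month replicates 1 and 2. Calls in the partner lists ran from 0 to 21. The fold change of Stmn1 ran from -0.09 to 0.01, of Stmn2 from 0.00 to 0.09, of Stmn3 from -0.14 to -0.10, of Stmn4 from -0.13 to -0.05 and of Gm11223 from -2.85 to -2.71.

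Log2 ratios of levels per length, 1.90 for Stmn3 over Stmn4, 0.97 for Stmn4 over Stmn2 and 1.77 for Stmn2 over Stmn1, were 1.40, 0.75 and 1.63 with the longest transcripts. Chosen after seeing the data, principal transcripts gave 1.34, 0.091 and 2.35, and 1.34, 0.091 and 1.55 with the stretch shared with Gm11223 left out of Stmn1. With the longest transcripts the shares at 6 and 16 months were 4.29% and 4.41% for Stmn1, 12.8% and 14.1% for Stmn2, 60.3% and 59.0% for Stmn3, and 22.6% and 22.5% for Stmn4. Per 1000 counts on both genes, Gm11223 had 124.6 at 6 months and 21.2 at 16 months. The 22 to 27 Gm11223 counts at 16 months limit the precision of its ratio to Stmn1.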
